A study of Mus musculus with 8 samples.

Results

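The translation initiation and elongation factors are 46 genes, chosen by symbol from the 38741 gene symbols of the table, and every one of them was measured in the gastrocnemius, a fast calf muscle, of 8 male mice. All 46 were tested, and no symbol stood on more than 1 line of the table. The 4 wild-type mice (WT1 to WT4) were aged 9 to 10 weeks, with a body weight of 24 ± 1.41 g (SD, n = 4). The 4 knockout mice (KO5 to KO8) were homozygous for the Bcat2tm1.2Clyn allele and aged 10 to 11 weeks, with a body weight of 19.5 ± 4.2 g (SD, n = 4). Their weights ran from 15 to 24 g, and the knockouts labelled as 10 weeks old were lighter than those labelled as 11 weeks old. Which knockout columns these were cannot be told. Both genotypes were on the C57BL6 background, and dams and offspring of both had free access to a chow and to a purified diet without branched-chain amino acids (BCAA). Bcat2 encodes BCATm, the mitochondrial aminotransferase that starts BCAA breakdown in muscle, and the comparison asks how its loss relates to muscle messenger RNA. The allele is labelled as a knockout with no tissue restriction named, so effects that begin in muscle and effects that reach it from elsewhere cannot be told apart.

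Protein synthesis starts when eIF2 carries the initiator transfer RNA to the small ribosomal subunit, helped by eIF1, eIF1A, eIF3 and eIF5. The eIF4 factors bring the messenger by its cap, and the large subunit then joins through eIF5B. Elongation runs on eEF1A, which delivers each aminoacyl-transfer RNA, and on eEF2, which moves the ribosome along the messenger. The BCAA leucine promotes initiation in muscle through the kinase complex mTORC1, which acts on the cap-binding step, and eIF2B, which recharges eIF2 with GTP, is the other main control point.

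Values are FPKM, fragment numbers scaled by exon length and by the mapped fragments of the library, so levels can be set side by side between genes. Differences are knockout minus wild type on the scale of log2(FPKM + 1), with the standard error (SE) from limma fitted over all 11118 genes with a mean of at least 1 FPKM. A gene passed where its p-value, adjusted over all of these by the Benjamini-Hochberg method, was under 0.05. Beside it stands an exact permutation test over the 70 ways of labelling 8 mice, 2-sided, whose smallest possible p is 0.0286. The tissue was measured whole, so fewer cells of a type and less RNA per cell cannot be told apart.

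Bcat2 itself separated the labelled groups, at 41.2 to 83.0 FPKM in the wild types and 2.09 to 5.26 FPKM in the knockouts (limma, adjusted p = 0.00245). Libraries differed in depth, from 0.435 to 1.22 of that of WT2 as read from the lowest FPKM steps. WT1 and KO6 stood apart in cell content. The 7 adipocyte markers summed to 15703 FPKM in WT1 and 8266 FPKM in KO6 against 614 to 2030 FPKM in the other 6 mice, and the 6 keratinocyte markers to 547 FPKM in KO6 against at most 2.78 FPKM elsewhere. The 9 muscle fibre markers found in the table summed to 53504 to 63015 FPKM in the wild types and 54419 to 87924 FPKM in the knockouts, the highest in KO5. The Schwann cell sum was 48.3 to 90.9 FPKM in the wild types and 72.8 to 176 FPKM in the knockouts, with KO5, KO6 and KO7 above every wild type and KO5 the highest. Endothelial, fibroblast, macrophage and erythroid sums overlapped between the genotypes. No marker that was found was at 0 in all mice. Over all genes tested the median difference was -0.12, and with median-ratio scaling, whose size factor was 0.740 for KO8 and 0.950 to 1.174 for the other mice, it was -0.002.

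None of the 46 translation factors passed the adjusted threshold in limma, which 3 genes of the 11118, or 0.027%, did. Leaving out WT1, WT2, KO6, KO7 or KO8 gave 9, 8, 6, 8 and 5 such genes, with 0 members among them each time. At an unadjusted limma p under 0.05, 2 members were higher in the knockouts (Eef1b2 and Eif3m) and 2 were lower (Eef1a2 and Eif2b3), 4.35% each way, against 2.99% of all genes higher and 7.33% lower. These counts depended on single mice. Leaving out KO7 gave 6 higher, and leaving out KO6 or WT4 gave 0, while KO5 or WT3 left out gave 1. The number lower in the knockouts was 0 without KO8, and 1 without WT2, without WT3 or without KO7. No member had knockout and wild-type values that did not overlap, where 6.75% of all genes did, 2.08% with the knockouts higher and 4.68% with the knockouts lower. The members' median difference was -0.05, and 29 of 46 lay above the median of all genes.

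In the knockouts 20 of the 46 members had the higher mean and 26 the lower. That division moved with the scaling, to 30 higher with median-ratio scaling and 22 with quantile scaling, so directions of small differences are not read here. A difference under 0.1 in size was found for 15 members, and 4 exceeded 0.5: Eif4g2, Pabpc1, Eef1b2 and Eef1a2. With median-ratio scaling 5 members were higher at an unadjusted limma p under 0.05 (Eef1b2, Eef1e1, Eif3m, Eif4g2 and Pabpc1), or 10.9%, against 6.75% of all genes. Under the same scaling 0 were lower, against 5.16% of all genes.

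**Figure D1:**
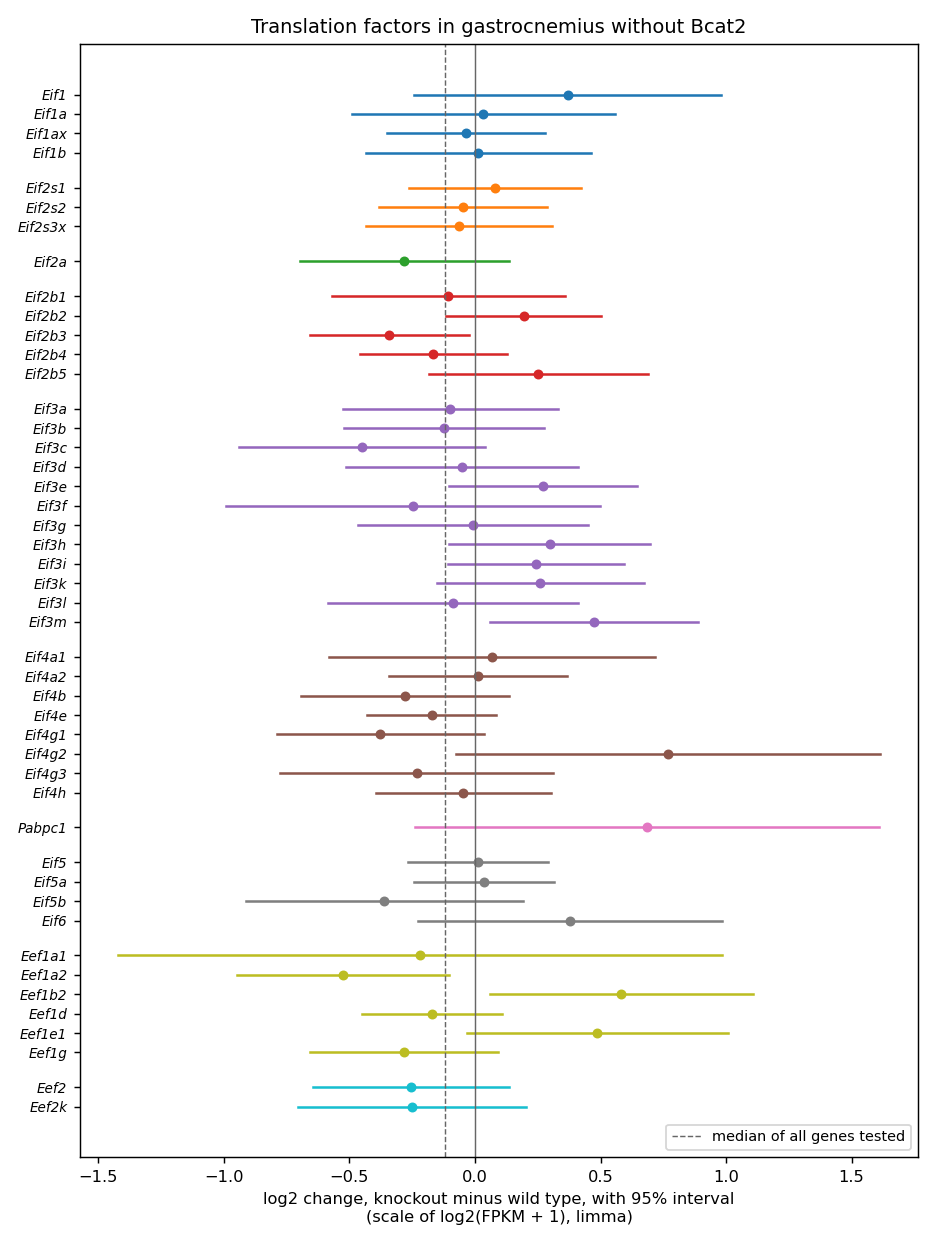
Difference of each of the 46 factors between knockout and wild-type muscle, in log2(FPKM + 1), as points with the 95% interval from limma as horizontal lines, coloured and spaced by complex. The dashed line is the median of all genes tested (-0.12). The intervals of Eef1b2 and Eif3m lie above 0 and those of Eef1a2 and Eif2b3 below it, and none of the 46 passed the adjusted threshold.

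The levels of the factors spanned 7.73 FPKM (Eif1a) to 508 FPKM (Eef1b2) as means of all 8 mice. The 7 most abundant were, in order, Eef1b2, Eef1a2 (403 FPKM), Eif1 (397 FPKM), Eif5a (286 FPKM), Eef2 (260 FPKM), Eif4a2 (216 FPKM) and Eef1a1 (211 FPKM). In that order the range over mice of each of these genes overlapped that of the next. In all, 15 members reached 100 FPKM and 3 were under 10 FPKM. The 46 together made up 0.466% to 0.617% of the summed FPKM of a library, with the largest share in KO6 and the smallest in KO8.

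The elongation factor eEF1A has a pair of near-identical isoforms. Eef1a1 is made in most cell types, and Eef1a2 replaces it in adult muscle fibres and neurons. Their genes lie apart, Eef1a2 on chr2:181147653-181157014 and Eef1a1 on chr9:78478449-78489151 (mm10, both on the minus strand). Sequences upstream of their RefSeq starts are shown because the balance of this isoform pair is what the eEF1A values turn on. Each runs 5′ to 3′ for the 250 bases before the RefSeq start of the gene (GRCm38.p6), Eef1a2 at chr2:181157016-181157265 and Eef1a1 at chr9:78481725-78481974, with GC boxes in capitals (CCGCCC or its complement GGGCGG). For Eef1a1 the annotations disagree on the start, since the deposited interval reaches further upstream than the RefSeq start, and the window shown lies inside that interval.
Eef1a2: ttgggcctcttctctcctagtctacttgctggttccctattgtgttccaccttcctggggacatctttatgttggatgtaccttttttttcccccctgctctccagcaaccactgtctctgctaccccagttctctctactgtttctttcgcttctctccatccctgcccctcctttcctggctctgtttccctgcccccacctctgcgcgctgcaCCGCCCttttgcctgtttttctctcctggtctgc
Eef1a1: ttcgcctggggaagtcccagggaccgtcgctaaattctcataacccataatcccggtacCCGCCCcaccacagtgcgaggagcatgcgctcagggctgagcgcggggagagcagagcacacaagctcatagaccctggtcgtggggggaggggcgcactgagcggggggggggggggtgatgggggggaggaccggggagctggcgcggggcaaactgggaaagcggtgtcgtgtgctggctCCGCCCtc
The Eef1a1 window held 2 GC boxes and 18 CpG dinucleotides, and the Eef1a2 window 1 GC box and 4 CpG. Pyrimidines made up 76.8% of the bases shown for Eef1a2, a share that 0.119% of the 32851 RefSeq windows of this length reached, and 40.4% for Eef1a1, beside a median of 50% over all windows. Neither window held an E-box (CANNTG) or a TATA box (TATAAA, either strand), which 66.2% and 12.4% of all windows held. Of the 46 members 36 had a promoter entry, with 45 windows in all. A GC box was in 27 of these 45 windows, or 60%, against 32.7% of all windows, and their median CpG count was 19 against 6. Members without an entry were Eef1g, Eif3h, Eif3i, Eef1d, Eif2b3, Pabpc1, Eif1a, Eif3e, Eif4g2 and Eif6.

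Eef1a2 was measured at 389, 439.5, 641 and 439.8 FPKM in WT1 to WT4 and at 347, 294, 391 and 281 FPKM in KO5 to KO8. WT3 was the highest mouse and 3 knockouts were the lowest, and the genotypes overlapped only in that KO7 lay just above WT1. Means were 477 ± 112 FPKM (SD, n = 4) and 328 ± 50.8 FPKM (SD, n = 4). The difference was -0.53 (SE 0.19, 95% interval -0.95 to -0.10), with a limma adjusted p of 0.480 and an exact permutation p of 0.0571, so it did not pass.

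Eef1a1 was measured at 350, 106, 216 and 186 FPKM in WT1 to WT4 and at 186, 440.4, 111 and 89.4 FPKM in KO5 to KO8. Its highest mice, KO6 and WT1, were the same mice that were highest in adipocyte markers, one of each genotype, and the part of fat in its level was not tested. Means were 215 ± 102 FPKM and 207 ± 161 FPKM (SD, n = 4 each), a difference of -0.22 (SE 0.53, 95% interval -1.42 to 0.99; limma adjusted p = 0.860; exact permutation p = 0.8). Leaving out KO8 gave 0.09 and leaving out WT1 gave 0.06, so even its sign rested on single mice.

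Eef1a2 made up 52.6%, 80.6%, 74.8% and 70.3% of the FPKM of both isoforms in WT1 to WT4, and 65.1%, 40.1%, 78.0% and 75.8% in KO5 to KO8. By these values it was the more abundant isoform in 7 of 8 mice and the less abundant in KO6 alone. Only uniquely mapped reads were counted and Eef1a1 has many processed pseudogenes, so the shares are uncertain. The log2 ratio of Eef1a2 to Eef1a1 averaged 1.25 ± 0.80 in wild types and 0.94 ± 1.09 in knockouts (SD, n = 4 each), a difference of -0.31 (exact permutation p = 0.629; 0.714 after adjustment over the 2 isoform pairs tested). It was 0.20 without KO6. The sum of both isoforms was 692 ± 136 FPKM against 535 ± 151 FPKM (SD, n = 4 each; exact permutation p = 0.143).

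**Figure D2:**
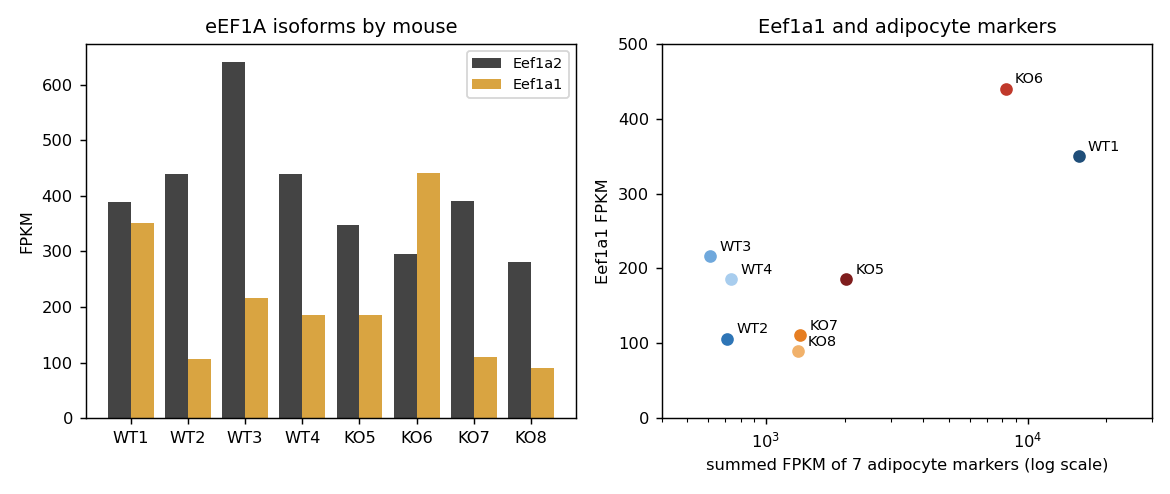
Left, FPKM of Eef1a2 (dark bars) and Eef1a1 (light bars) in each mouse, with Eef1a1 above Eef1a2 in KO6 only. Right, Eef1a1 FPKM of each mouse against the summed FPKM of 7 adipocyte markers on a log axis, where KO6 and WT1 lie apart from the other 6 mice on both axes.

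Eef1b2, Eef1d and Eef1g encode the exchange complex that reloads eEF1A with GTP. Eef1b2, a catalytic subunit of that exchange factor, was measured at 488, 400.2, 302 and 421 FPKM in WT1 to WT4 and at 649, 847, 439 and 520.1 FPKM in KO5 to KO8. KO6 was the highest mouse and WT3 the lowest, and 3 of 4 knockouts lay above every wild type. Means were 403 ± 77.0 FPKM and 614 ± 178 FPKM (SD, n = 4 each), and the difference was 0.58 (SE 0.23, 95% interval 0.06 to 1.11; limma adjusted p = 0.480; exact permutation p = 0.0571).

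Eef1g, the structural subunit of the exchange complex, averaged 174 ± 26.1 FPKM in wild types and 143 ± 22.4 FPKM in knockouts (SD, n = 4 each). Eef1d, the other exchange subunit, averaged 120 ± 9.71 FPKM and 106 ± 8.38 FPKM (SD, n = 4 each). The differences were -0.17 for Eef1d and -0.28 for Eef1g, and they shrank to -0.0209 and -0.13 with median-ratio scaling. Neither partner passed, at limma adjusted p = 0.576 and 0.511. Eef1e1, a scaffold protein of the aminoacyl-transfer RNA synthetase complex, was measured at 29.5, 34.9, 17.5 and 31.7 FPKM in wild types and at 45.8, 43.6, 35.6 and 32.5 FPKM in knockouts. KO8 fell within the wild-type range and the other 3 knockouts lay above it (difference 0.49; limma adjusted p = 0.484). Eef1e1 was grouped with eEF1 by its symbol only. The median over these 6 members, Eef1e1 included, was -0.19 beside -0.12 for all genes. Of the 6, Eef1b2 and Eef1e1 lay above the median of all genes.

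Eef2, the translocase, was measured at 238, 287, 348 and 257 FPKM in WT1 to WT4 and at 249.7, 278, 230.3 and 188 FPKM in KO5 to KO8. WT3 was the highest mouse and KO8 the lowest, and the ranges overlapped from 238 to 278 FPKM. Means were 283 ± 48.2 FPKM and 236 ± 38.0 FPKM (SD, n = 4 each; difference -0.26, SE 0.17; limma adjusted p = 0.547; exact permutation p = 0.2). Eef2k, the kinase that inhibits eEF2, averaged 12.96 ± 2.65 FPKM and 10.8 ± 2.45 FPKM (SD, n = 4 each; difference -0.25; limma adjusted p = 0.610).

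At the start codon, Eif1, which guards start-codon choice, was measured at 432, 308, 331 and 284 FPKM in WT1 to WT4 and at 599, 565, 267 and 387 FPKM in KO5 to KO8. KO5 and KO6 were above every wild type and KO7 was below all of them. Means were 339 ± 64.8 FPKM and 454 ± 156 FPKM (SD, n = 4 each; difference 0.37, SE 0.27; limma adjusted p = 0.579; exact permutation p = 0.257). Its paralog Eif1b averaged 35.3 FPKM in wild types and 36.5 FPKM in knockouts. The eIF1A genes were lower still, at 20.8 and 20.4 FPKM for Eif1ax and 7.64 and 7.82 FPKM for Eif1a. The differences of these 3 lay between -0.03 and 0.03. The median of the 4 eIF1 and eIF1A genes was 0.02, and all 4 lay above the median of all genes.

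The 3 subunits of eIF2, the carrier of the initiator transfer RNA, each had genotype means that differed by less than the SD between mice. Eif2s2, the beta subunit and the most abundant, was measured at 31.5, 35.3, 36.2 and 33.8 FPKM in WT1 to WT4 and at 34.5, 37.0, 36.2 and 25.7 FPKM in KO5 to KO8. KO8 alone lay below the wild-type range (difference -0.05, SE 0.15; limma adjusted p = 0.897). Eif2s1, the alpha subunit whose phosphorylation slows initiation, averaged 15.2 and 16.2 FPKM, and Eif2s3x, the GTP-binding gamma subunit, 19.7 and 19.0 FPKM in wild types and knockouts. In this set of 3 the largest difference was 0.08, and the sign for Eif2s2 turned to 0.10 with median-ratio scaling, 0.02 with quantile scaling and 0.07 without KO8. Eif2a, a separate factor that can also bring initiator transfer RNA to ribosomes, averaged 20.5 ± 2.92 FPKM and 16.9 ± 3.73 FPKM (SD, n = 4 each; difference -0.28; limma adjusted p = 0.534).

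The exchange factor eIF2B has 5 subunits, and none passed in limma. Eif2b3, the gamma subunit, was measured at 10.2, 10.1, 10.1 and 9.78 FPKM in WT1 to WT4 and at 7.00, 9.81, 7.95 and 6.47 FPKM in KO5 to KO8. The wild types lay within a narrow band, 3 knockouts lay below it and KO6 lay just inside its lower end. Means were 10.0 ± 0.178 FPKM and 7.81 ± 1.47 FPKM (SD, n = 4 each; difference -0.34, SE 0.14; limma adjusted p = 0.480; exact permutation p = 0.0571). Eif2b2, the beta subunit and the most abundant, was measured at 36.2, 40.6, 33.1 and 33.4 FPKM in wild types and at 48.5, 39.3, 37.6 and 39.2 FPKM in knockouts. KO5 was above all other mice, and WT2 lay above the other 3 knockouts (difference 0.19, SE 0.14; limma adjusted p = 0.561). Eif2b5, the catalytic epsilon subunit, was measured at 32.3, 28.3, 28.1 and 28.5 FPKM in wild types and at 48.3, 38.7, 26.3 and 30.6 FPKM in knockouts. KO5 and KO6 stood above the wild types and KO7 below them (difference 0.25; limma adjusted p = 0.595). Eif2b1 and Eif2b4, regulatory subunits with Eif2b2, had differences of -0.11 and -0.17, and of 0.0321 and -0.0219 with median-ratio scaling.

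Within eIF3, the scaffold of the initiation complex, 12 measured subunits differed in level and in their pattern over mice. Eif3h, the most abundant, was measured at 140.2, 189, 116 and 142 FPKM in WT1 to WT4 and at 199, 198, 157 and 161 FPKM in KO5 to KO8. KO5 and KO6 were the highest mice and WT3 the lowest, and WT2 lay above KO7 and KO8. Means were 147 ± 30.8 FPKM and 179 ± 22.8 FPKM (SD, n = 4 each; difference 0.30, SE 0.18; limma adjusted p = 0.512; exact permutation p = 0.143). Eif3m, a subunit of the same abundant group, was measured at 94.7, 111, 63.0 and 84.8 FPKM in WT1 to WT4 and at 117, 128, 110.3 and 129 FPKM in KO5 to KO8. Only WT2, just above KO7, kept the genotypes from separating. Means were 88.5 ± 20.3 FPKM and 121 ± 8.88 FPKM (SD, n = 4 each; difference 0.48, SE 0.18, 95% interval 0.06 to 0.89; limma adjusted p = 0.480; exact permutation p = 0.0571).

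Divided at 80 FPKM, a level chosen after the values were seen, eIF3 fell into 2 sets. The 5 abundant subunits, Eif3e, Eif3h, Eif3i, Eif3k and Eif3m, averaged 105 to 163 FPKM and had differences of 0.24 to 0.48. The 7 others, Eif3a, Eif3b, Eif3c, Eif3d, Eif3f, Eif3g and Eif3l, averaged 15.4 to 49.6 FPKM and had differences of -0.45 to -0.01. The contrast in sign between the sets depended on the scaling. With median-ratio scaling Eif3a (0.0438), Eif3b (0.0188), Eif3d (0.0901), Eif3g (0.14) and Eif3l (0.0550) had higher knockout means, and with the length and GC trend removed Eif3g (0.0461) and Eif3l (0.0432) did. The 5 abundant subunits stayed above 0 in both of these fits. All 5 abundant subunits were lowest in WT3, the lowest mouse for 13% of all genes. All 7 others were lowest in KO8, the lowest mouse for 50.5% of all genes, and 4 of them were highest in WT3, the highest mouse for 33.5% of all genes. Subunits of the structural core were in both sets, with Eif3a, Eif3c, Eif3f and Eif3l in the low set and Eif3e, Eif3h, Eif3k and Eif3m in the high set. Across the 12 subunits, mean FPKM and the difference had a Spearman rho of 0.70, against 0.30 across the 46 members and 0.08 across all 11118 genes. Genes are not independent replicates, and the points share the same 8 libraries. Transcript length had a rho of 0.21 with the difference across the 12 subunits. The length used is that of each gene's annotated transcript of median length, 600 bases for Eif3b and 2633 for Eif3e. It need not be the length of the messenger made in muscle, so no relation of length to the 2 sets is read from it.

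Eif3c, a core subunit, was measured at 19.8, 20.6, 31.3 and 22.9 FPKM in wild types and at 17.0, 20.8, 19.1 and 11.6 FPKM in knockouts. KO8 was the lowest mouse and WT3 the highest, and KO6 lay within the wild-type range (difference -0.45; limma adjusted p = 0.484). Eif3f, a subunit known as a regulator of muscle mass, was measured at 42.9, 39.2, 95.7 and 41.7 FPKM in wild types and at 50.0, 61.0, 35.3 and 31.1 FPKM in knockouts. Apart from WT3, every wild type lay between the knockouts' lowest and highest values (difference -0.25; limma adjusted p = 0.733). Of the 12 subunits 9 lay above the median of all genes and 5 above 0.

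**Figure D3:**
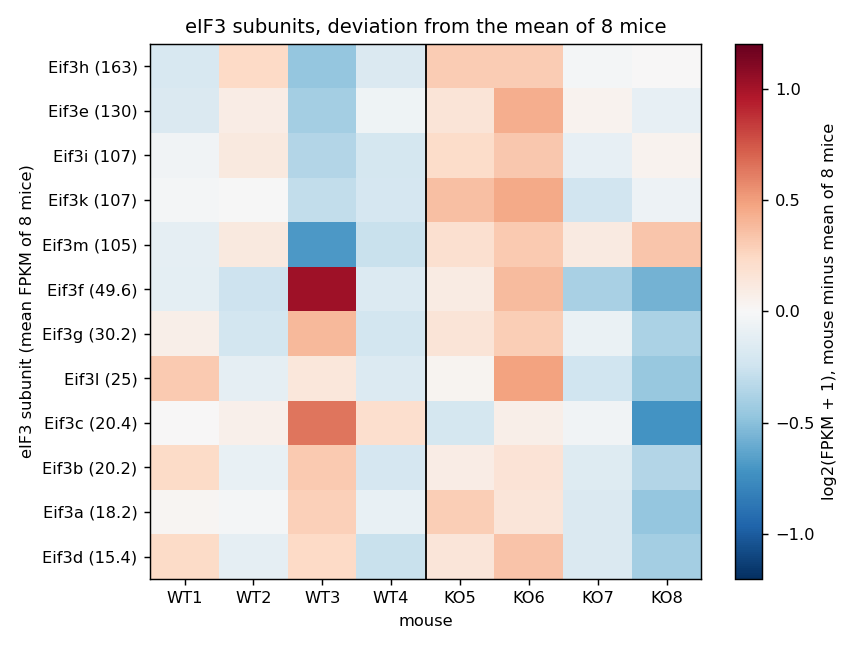
Deviation of log2(FPKM + 1) in each mouse from the mean of 8 mice for the 12 eIF3 subunits, ordered by mean FPKM (in parentheses), with wild types left of the line and knockouts right of it. The 5 abundant subunits at the top are lowest in WT3, and the 7 below them are lowest in KO8.

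The eIF4 factors bind the cap, unwind the messenger and join it to the ribosome. Eif4a2, the more abundant of the eIF4A helicases here, was measured at 209, 236, 198 and 211 FPKM in WT1 to WT4 and at 249, 249.7, 203 and 169 FPKM in KO5 to KO8. KO5 and KO6 were above all other mice and KO8 was below them, and the genotype means of 214 and 218 FPKM differed by less than the spread (difference 0.01, SE 0.16; limma adjusted p = 0.977). Its sign turned with quantile scaling. Eif4a2 made up 85.3% to 90.8% of the FPKM of Eif4a1 and Eif4a2 together in wild types and 85.4% to 90.5% in knockouts, a narrower range than that of the eEF1A pair. The difference of its log2 ratio was -0.06 (exact permutation p = 0.714; 0.714 after adjustment over the 2 pairs).

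Eif4g2, also known as DAP5, is a relative of eIF4G that lacks the site for the cap-binding protein and serves cap-independent initiation, and it was singled out after its values were seen. It was measured at 135, 122, 139.7 and 124 FPKM in WT1 to WT4 and at 379, 361, 138 and 129 FPKM in KO5 to KO8. KO5 and KO6 stood above every other mouse by more than the whole range of the other 6, while KO7 and KO8 lay within the wild-type range. Means were 130.1 ± 8.51 FPKM and 252 ± 137 FPKM (SD, n = 4 each; difference 0.77, SE 0.37, 95% interval -0.08 to 1.61; limma adjusted p = 0.484; exact permutation p = 0.143).

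The scaffold eIF4G of cap-dependent initiation took the other direction in its means. Eif4g1, its main form, was measured at 82.4, 85.2, 107 and 70.5 FPKM in wild types and at 80.2, 69.3, 63.8 and 52.1 FPKM in knockouts. WT3 was the highest mouse and KO8 the lowest, and KO5 lay among the wild types (difference -0.38, SE 0.18; limma adjusted p = 0.484; exact permutation p = 0.0571). Eif4g3, its second form, averaged 19.1 and 16.1 FPKM in wild types and knockouts. Eif4e, the cap-binding protein, averaged 30.3 ± 1.57 FPKM and 26.8 ± 1.44 FPKM (SD, n = 4 each; difference -0.17; limma adjusted p = 0.534; exact permutation p = 0.0571). Eif4b and Eif4h, which stimulate the helicase, had differences of -0.28 and -0.05. Over the 8 eIF4 members the median was -0.11, beside -0.12 for all genes.

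Pabpc1, the cytoplasmic poly(A)-binding protein that links the tail of the messenger to eIF4G, was measured at 32.8, 18.7, 24.1 and 19.4 FPKM in WT1 to WT4 and at 57.8, 67.5, 17.9 and 29.0 FPKM in KO5 to KO8. KO5 and KO6 were again the highest mice, and KO7 was the lowest of all 8. Means were 23.8 ± 6.47 FPKM and 43.1 ± 23.4 FPKM (SD, n = 4 each; difference 0.69, SE 0.40; limma adjusted p = 0.512; exact permutation p = 0.257).

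KO5 and KO6 were the 2 highest mice for 14 of the 46 members, or 30.4%, against 11.7% of all genes. The 14 were Eif1, Eif1b, Eif2b5, Eif3e, Eif3h, Eif3i, Eif3k, Eif4a2, Eif4g2, Pabpc1, Eif5a, Eif6, Eef1b2 and Eef1e1. Of the eEF1 and eEF2 groups only Eef1b2 and Eef1e1 were among them, and Eef1e1 was grouped there by its symbol only. Eef1a1, Eef1a2, Eef1d, Eef1g, Eef2 and Eef2k were not. That KO5 and KO6 go together was noticed after the values were seen, so it has no test. KO6 held the keratinocyte signal and, with WT1, the adipocyte signal, and KO5 the highest muscle fibre and Schwann cell sums. The part of these cells in the 14 members, or in other differences between the genotypes, was not tested. KO8 was the lowest mouse for 30 of the 46 members, or 65.2%, against 50.5% of all genes, and WT3 the highest for 16, or 34.8%, against 33.5%.

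**Figure D4:**
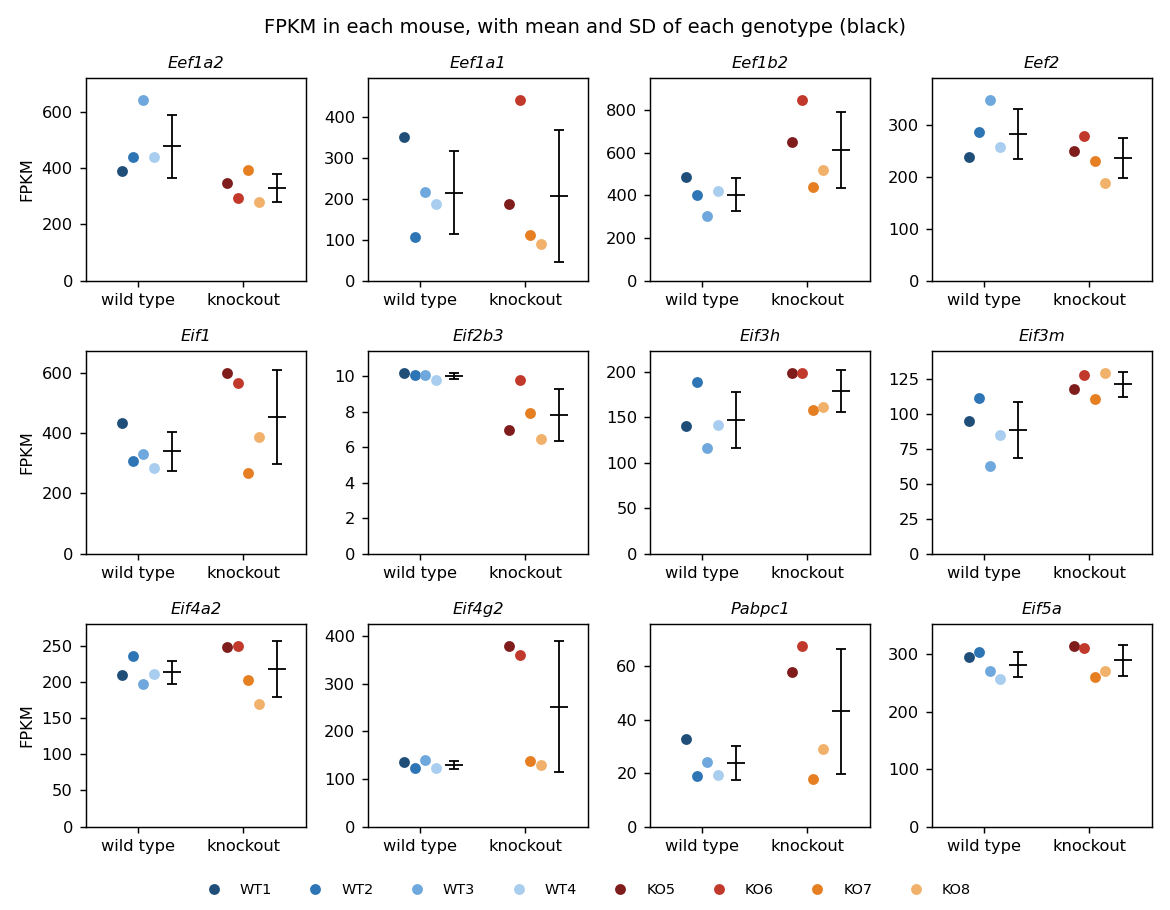
FPKM of 12 factors in each mouse (points, wild types in blue shades and knockouts in red and orange shades), with the mean and SD of each genotype in black. In the panels of Eif4g2, Pabpc1 and Eif1 the 2 highest points are KO5 and KO6, and KO7 lies among or below the wild types.

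Of the factors that act after start-codon choice, Eif5a, which helps ribosomes through difficult peptide bonds, was measured at 296, 304, 271 and 257 FPKM in WT1 to WT4 and at 314, 312, 261 and 271 FPKM in KO5 to KO8. The ranges nearly coincided (difference 0.04, SE 0.12, 95% interval -0.24 to 0.32; limma adjusted p = 0.904), and the sign turned with quantile scaling. Eif5, the GTPase-activating protein for eIF2, averaged 46.9 ± 3.49 FPKM and 47.3 ± 3.96 FPKM (SD, n = 4 each; difference 0.01). Eif5b, the GTPase of subunit joining, averaged 8.98 ± 2.37 FPKM and 6.86 ± 2.03 FPKM (SD, n = 4 each; difference -0.36; limma adjusted p = 0.547). Eif6, which keeps the large subunit from joining too early, was measured at 56.7, 42.5, 35.6 and 30.8 FPKM in wild types and at 75.3, 57.4, 34.7 and 51.3 FPKM in knockouts. KO5 was the highest mouse, and KO7 lay among the lowest wild types (difference 0.38; limma adjusted p = 0.564).

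By complex, the median difference was 0.02 for eIF1, -0.05 for eIF2, -0.11 for eIF2B, -0.03 for eIF3 and -0.11 for eIF4. It was 0.02 for the eIF5 and eIF6 group, -0.19 for eEF1 with Eef1e1 counted in, and -0.25 for the pair of Eef2 and Eef2k. For single mice another scale was used. Each gene was set against its mean over 8 mice, and the mouse's median over all genes was subtracted from the median of the group. On that relative scale the medians of single mice overlapped between the genotypes in each of these 8 groups. Over all 46 members the relative median of a mouse ran from -0.10 to 0.08 in wild types and from -0.06 to 0.16 in knockouts, highest in KO5.

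Further genes of the pathway were read from lists chosen by function. Of 12 genes that control cap binding 11 were tested, 0 passed the adjusted threshold in limma, and at an unadjusted p under 0.05 there were 3 lower and 0 higher in the knockouts, beside 7.33% of all genes lower and 2.99% higher. The 3 were Eif4ebp2, a repressor of eIF4E, at 30.4 ± 9.29 and 19.3 ± 6.13 FPKM (difference -0.63), Larp1, which binds TOP messengers, at 13.8 ± 3.93 and 8.55 ± 2.14 FPKM (difference -0.62), and Eif4e3, a cap-binding relative of eIF4E, at 14.2 ± 2.05 and 10.0 ± 1.83 FPKM (difference -0.47), each mean ± SD of 4 mice. All 3 were highest in WT3 and lowest in KO8, as were 33.5% and 50.5% of all genes for each mouse in turn. Each had an exact permutation p of 0.0571, and their limma adjusted p-values were 0.480 to 0.484. Of the 11 tested, 2 lay above the median of all genes, and the list's median was -0.21. On the relative scale, with each mouse's median over all genes subtracted, the medians of single mice ran from 0.07 to 0.28 in wild types and from -0.32 to 0.10 in knockouts.

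Of 9 genes that control or replace eIF2, 7 were tested, none of which passed or had an unadjusted limma p under 0.05. Mcts1 came nearest, a partner in reinitiation, with 62.5 ± 14.8 and 82.6 ± 9.47 FPKM (SD, n = 4 each; difference 0.42; limma adjusted p = 0.484). Of 6 termination and recycling factors 5 were tested and none passed or had such a p. Hbs1l came nearest there, a ribosome rescue GTPase, with 16.8 ± 3.68 and 13.2 ± 2.58 FPKM (SD, n = 4 each; difference -0.32). Of 9 further factors around the poly(A) tail, eIF3 and eIF5A, 7 were tested and none passed or had such a p. Pabpc4, a relative of Pabpc1, had the smallest p, at 34.4 ± 9.61 and 25.1 ± 3.93 FPKM (SD, n = 4 each; difference -0.41; limma adjusted p = 0.485), a mean difference opposite in sign to that of Pabpc1.

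Of the members 10 are known as TOP messengers, whose 5′ end begins with a run of pyrimidines and whose translation follows mTORC1. Of these 10, Eef1b2 alone had an unadjusted limma p under 0.05, on the higher side, where 2.99% of all genes were, and 0 were on the lower side, where 7.33% were. Of the 10, 4 lay above the median of all genes. Their median was -0.19, against -0.04 for the 36 other members, of which 25 lay above the median of all genes. On the relative scale the medians of single mice overlapped between the genotypes in both sets. For the TOP set they ran from -0.16 to 0.07 in wild types and from -0.09 to 0.20 in knockouts. For the other members they ran from -0.11 to 0.08 in wild types and from -0.05 to 0.16 in knockouts. No lower level of the TOP set is therefore read from its median. Within the TOP set Pabpc1 (0.69) and Eef1b2 (0.58) stood at one end, and Eef1g (-0.28) and Eif4b (-0.28) at the other.

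The authors' deposited table flags genes at thresholds of its own p-value, by a test that the files and labels used here do not name. Of the 46 members 17, or 37.0%, were flagged at p under 0.05 in the authors' deposited table, against 20.2% of the genes tested here. Of these, 8 had the higher and 9 the lower mean in knockouts in the authors' deposited table. At p under 0.001 the authors' deposited table flagged 9 members, or 19.6%, against 10.8% of the genes tested here. Those 9 were Eif1, Eif3m, Eif4g2, Pabpc1 and Eef1b2 with higher and Eif4g1, Eef1a2, Eef1g and Eef2 with lower knockout means in the authors' deposited table. The authors' deposited table also flagged Eef1a1 at p under 0.05, with means of 215 and 207 FPKM. None of these passed the adjusted threshold in limma, and the reason for this gap was not tested.

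Some members share exons with other genes, and no strand setting of the counting is named in the files or labels used here, so their values are uncertain to that extent. Eif3d shares 2151 exonic bases with the antisense gene Gm17638, Eif5b 1643 with Rev1 on the opposite strand, Eef1d 277 with Naprt on the same strand, Eif2b4 204 with Snx17 and Eif4a2 194 with Rfc4. Eef1a1 has many processed pseudogenes, and only uniquely mapped reads were counted, so its level and its balance with Eef1a2 are uncertain too. Eef1b2, Eif3m and Eef1a2 share at most 82 exonic bases with another protein-coding gene.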

How the data were processed

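Frozen gastrocnemius gave total RNA for TruSeq v2 libraries sequenced single-end for 50 cycles, per the labels' protocols. TopHat 2.0.9 aligned the reads to mm10, and Cufflinks turned uniquely mapped reads into FPKM, in version 2.0.2 per the labels' protocols and 2.2.1 per the submitters' processing notes. The deposited values are FPKM, 1 column per mouse, with the authors' flags for thresholds of a p-value, per the file headers.

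Wild-type columns carry the labels' own numbers. Knockout columns KO5 to KO8 match no single labelled knockout, so no column was given a knockout's age or weight. The members and lists were chosen with earlier results of these data known. Values in every mouse are given for Eef1a1, Eef1a2, Eef2, Pabpc1, members with an unadjusted p under 0.05, the most abundant member of each complex and, after values were seen, Eif4g2, Eif3c, Eif3f, Eif4g1, Eif2b5, Eef1e1 and Eif6.

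The test was limma-trend (limma 3.58.1, R 4.3.3) on log2(FPKM + 1) of the 11118 genes with a mean of at least 1 FPKM, with genotype as the only term, checked first on simulated data. The pseudocount of 1 understates differences of genes with low FPKM. FPKM carry no read totals, so no counting interval is given, and precision rests on 4 mice a group. The alternatives were a pseudocount of 0.5 or 0.1, a minimum mean of 5 FPKM or none, median-ratio and quantile scaling, summed lines of a symbol, zeros set to missing, robust eBayes, each mouse left out, and WT1 and KO6 left out together. A fit with loess trends (span 0.5) on length and GC content removed was added after seeing the data. Length and GC content were those of each gene's annotated transcript of median length, which need not be the one made in muscle. Promoters are RefSeq windows of GRCm38.p6.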

Additional observations from a re-analysis of the deposited data

Results flagged for a closer look

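In 6 of the 112 groups of 4 mice looked at (5.36%), 1 mouse lay far from the other 3 by Dixon's test at the 95% level, which chance reaches in about 1 group in 20. Eif3f, the eIF3 subunit known as a regulator of muscle mass, was at 95.7 FPKM in WT3 and at 39.2 to 42.9 FPKM in the other wild types. WT3 was also apart for Eif5b, the GTPase of subunit joining, at 12.5 FPKM against 7.49 to 8.30 FPKM, and for Eif2b1, the alpha subunit of eIF2B, at 16.9 FPKM against 12.4 to 13.1 FPKM. WT1 was apart for Eif1a, at 11.2 FPKM against 6.35 to 6.52 FPKM, and for Eif2b5, at 32.3 FPKM against 28.1 to 28.5 FPKM. KO5 was apart for Eif2b2, the beta subunit of eIF2B, at 48.5 FPKM against 37.6 to 39.3 FPKM in the other knockouts.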

How the results depend on the processing

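No member passed the adjusted threshold in limma under any of the alternatives run, and the lowest adjusted p of a member was 0.377, with KO7 left out. The number of genes called over all genes was 11 without WT1 and KO6, 1 with zeros set to missing and 4 to 9 with single mice left out. Members higher at an unadjusted p under 0.05 numbered 5 with median-ratio scaling, 4 with quantile scaling, 1 with the length and GC trend removed, 1 without WT1 and KO6, and 0 to 6 with single mice left out. Members lower numbered 0 with median-ratio scaling, 1 with the length and GC trend removed, 1 with robust eBayes, 1 with zeros set to missing, 4 without WT1 and KO6 (Eef1a2, Eif2b3, Eif3c and Eif4b), and 0 to 2 with single mice left out. The cause of these moves was not tested.

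With single mice left out, the difference ran from -0.68 to 0.0853 for Eef1a1, -0.10 to 0.0691 for Eif2s2, -0.0596 to 0.13 for Eif4a2 and -0.0069 to 0.0851 for Eif5a. The isoform ratio differences ran from -0.67 to 0.20 for eEF1A and -0.21 to 0.0793 for eIF4A. Relative to the median of all genes, the eEF1 median ran from -0.0958 to 0.0216 the eIF2 median from 0.0531 to 0.137, the eIF2B median from -0.0698 to 0.0764 and the eIF4 median from -0.0266 to 0.0467. Signs also turned for Eif2s2 (0.10 with median-ratio and 0.0234 with quantile scaling), Eif4a2 (-0.0789 with the length and GC trend removed, -0.0762 with quantile scaling, -0.0688 without WT1 and KO6) and Eif5a (-0.11 with quantile scaling). The relative eEF1 median was -0.18 with no filter and -0.22 with quantile scaling, the eIF2 median -0.0025 with the trend removed and -0.0292 with no filter, the eIF2B median -0.0874, the eIF4 median -0.0911 and the eIF3 median -0.0107 with no filter, and the eIF5 and eIF6 median -0.000912 with quantile scaling. Differences of Eef1a2, Eef1b2, Eef2, Eif1, Eif2b2, Eif2b3, Eif3h, Eif3m, Eif4g2 and Pabpc1 had the same sign under every alternative run, but single mice moved their size. With single mice left out they ran from 0.41 to 1.03 for Pabpc1, 0.51 to 1.03 for Eif4g2, 0.21 to 0.60 for Eif1, -0.34 to -0.15 for Eef2, 0.11 to 0.25 for Eif2b2, 0.19 to 0.43 for Eif3h, 0.32 to 0.59 for Eif3m, 0.41 to 0.73 for Eef1b2, -0.61 to -0.38 for Eef1a2 and -0.44 to -0.27 for Eif2b3. No paired analysis was possible because the knockout columns carry no replicate number that matches the labels. The labels also number the mice within each genotype only and state no pairing of wild types with knockouts. Matching numbers alone would therefore not have made pairs.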
